A study of Mus musculus with 4 samples.

Results

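The regions described here were bound by TFE3, by the authors' peak calls, in fibroblasts treated with tunicamycin, and held no peak in unstressed or starved cells. The 3 deposited peak lists were pooled and sorted, intervals that shared 1 bp or more were merged, and the regions chosen by the rule were those with a tunicamycin peak and no control or starvation peak. The rule found 1484 of 3415 merged regions (percentage called 43.5; 95% exact Clopper-Pearson interval 41.8 to 45.1), a count fixed by the rule itself. Each of them held exactly 1 tunicamycin peak, so regions and peaks can be counted alike. They made up 53.5% (51.6 to 55.3) of the 2776 tunicamycin peaks and 388 kb of the 839 kb which those peaks covered. Peak presence chose the regions, and peak presence follows from the score, fold and p-value of the same calls, so those values describe the regions and carry no test. The count depended on how the lists were cut. It was 651 with the tunicamycin list alone cut to its 1712 highest scores, the length of the starvation list. Cutting that list alone could only lower the count and keep a part of the 1484. With 1 higher score threshold, 108, in every list it was 763, of which 398 were among the 1484 and 365 had lost a weaker control or starvation partner to the threshold.

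The series consists of 4 ChIP-seq libraries from mouse embryonic fibroblasts (MEF), listed by the labels under strain CRL-2977, with 1 library per group. The control group had grown in full medium with 10% fetal bovine serum, the starvation group had spent 2 hours in Earle's balanced salt solution, and the tunicamycin group had received 0.1 µg/ml tunicamycin over 16 hours. These 3 groups were precipitated with the same antibody lot against TFE3, and rabbit IgG, the background control, was used on the fourth library, for which the labels name no stress. All chromatin had been crosslinked in 1% formaldehyde. The labels mention no genetic change and no time-matched or vehicle-treated control, so tunicamycin and the length of exposure cannot be told apart, and nothing in the labels gives a second culture of any group.

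TFE3 is a basic helix-loop-helix leucine zipper protein that binds E-box DNA as a dimer with itself or with its relatives TFEB and MITF. In fed cells the mTORC1 kinase keeps it phosphorylated in the cytosol, and on starvation it moves to the nucleus, where it is known for driving lysosomal and autophagy genes. Tunicamycin blocks the first step of N-linked glycan assembly, so that unfolded glycoproteins build up in the endoplasmic reticulum and the kinase PERK starts the integrated stress response through ATF4. The series asks what part TFE3 and its relatives play in that response.

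Positions are given in mm9, the build named in the submitters' processing notes, counted from 1. A gene table of GRCm38 was at hand, but 21 deposited peaks on 5 chromosomes end beyond its last gene on the same chromosome, and the builds were not mixed. The regions are therefore named by mm9 position alone. Gene assignment, promoter position and sequence motifs were not analysed here.

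The strongest tunicamycin peaks were almost never tunicamycin only, while the weak ones mostly were. Ranked by the authors' score, which is the whole part of 10 times the −log10 of the q-value, the highest 100 peaks held 0 tunicamycin-only peaks, where 3 counts of the total would be 3% and the exact interval reaches 3.62%. The first 500 held 25 (5%, 3.26 to 7.29) and the first 1000 held 206 (20.6%, 18.1 to 23.2). In the highest decile of the list, with scores of 302 and above, 3 of 278 peaks were tunicamycin only (1.08%, 0.223 to 3.12), and in the next decile 32 of 278 were (11.5%, 8.01 to 15.9). The share passed 50% in the fifth decile, at 59.6% (53.5 to 65.4), where scores ran from 100 to 123. It then reached 78.8% (73.5 to 83.4) in the seventh decile and levelled off. The last decile, with scores of 49 and less, stood at 75.8% (70.3 to 80.7), and the intervals of the last 4 deciles overlapped. The other peaks of the last decile had a starvation or control partner. Peaks of a list share 1 library, and these intervals cover counting error over peaks only.

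**Figure D1:**
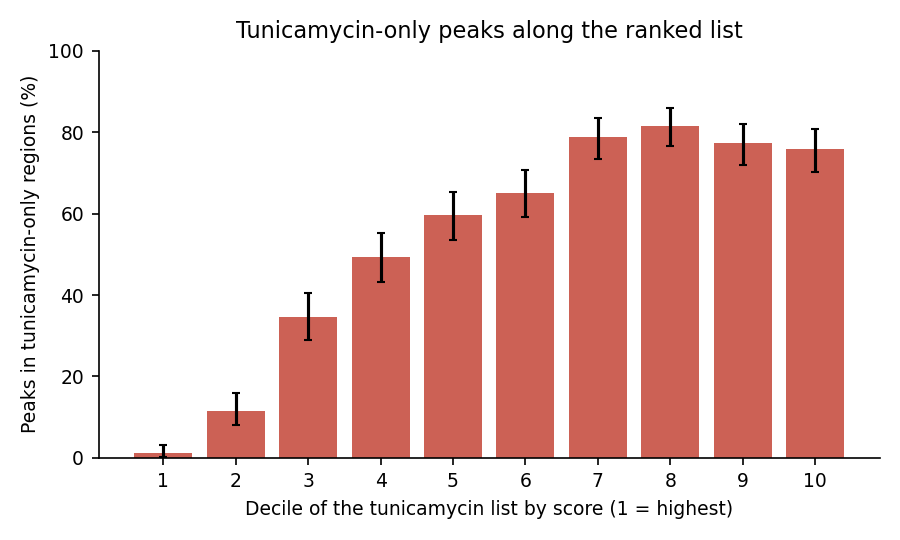
Share of tunicamycin peaks that lay in tunicamycin-only regions (percent, with 95% exact intervals) in each decile of the tunicamycin list ordered by score. The share climbs from 1.08% in the highest decile to 78.8% in the seventh and stays near that level to the last.

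The authors' fold enrichment at the summit, a linear ratio over the local IgG background, was 5.66 at the median tunicamycin-only peak (10th to 90th percentile 4.48 to 7.76, n = 1484). The tunicamycin peaks shared with starvation alone had a median of 7.48 (4.96 to 11.6, n = 1123). For those called in all 3 lists the same percentiles were 8.46 and 21.7. The classes overlapped widely at the low end: 77.9% (75.7 to 80.0) of tunicamycin-only peaks and 89.6% (87.6 to 91.3) of those shared with starvation alone had a fold of at least 5. They parted at the high end, where only 12 tunicamycin-only peaks (0.809%, 0.419 to 1.41) reached a fold of 10, against 243 (21.6%, 19.3 to 24.2) of those shared with starvation alone. The median of the class moved to 11.1 when all lists kept only 422 peaks, and 131 of the 139 peaks then in tunicamycin only were outside the 1484. Among all 770 tunicamycin peaks of fold 8 or more, 126 were tunicamycin only (16.4%, 13.8 to 19.2).

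Tag numbers gave the same order, but they were recovered from the same deposited fold and p-value and are no second measure. A tag is 1 sequenced TFE3 fragment over the summit, and the number could be resolved for 1478 of the 1484 regions. The median was 46 tags (lower and upper quartile 40 and 54), against 65 (50 to 81) for peaks shared with starvation alone and 136 (107 to 172) for peaks of all 3 lists. The tunicamycin-only peaks were also narrower, with a median of 251 bp (227 to 288) against 331 bp (283.5 to 367) for those shared with starvation alone. The shortest peak of the list, 212 bp, follows the fragment length of the library, and 120 tunicamycin-only peaks had exactly this width (8.09%, 6.75 to 9.59), against 11 of the 1292 shared peaks (0.851%, 0.426 to 1.52). Their summits lay near the middle, at a median of 49.4% of the peak's width, with a median offset of 15 bp from the centre.

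**Figure D2:**
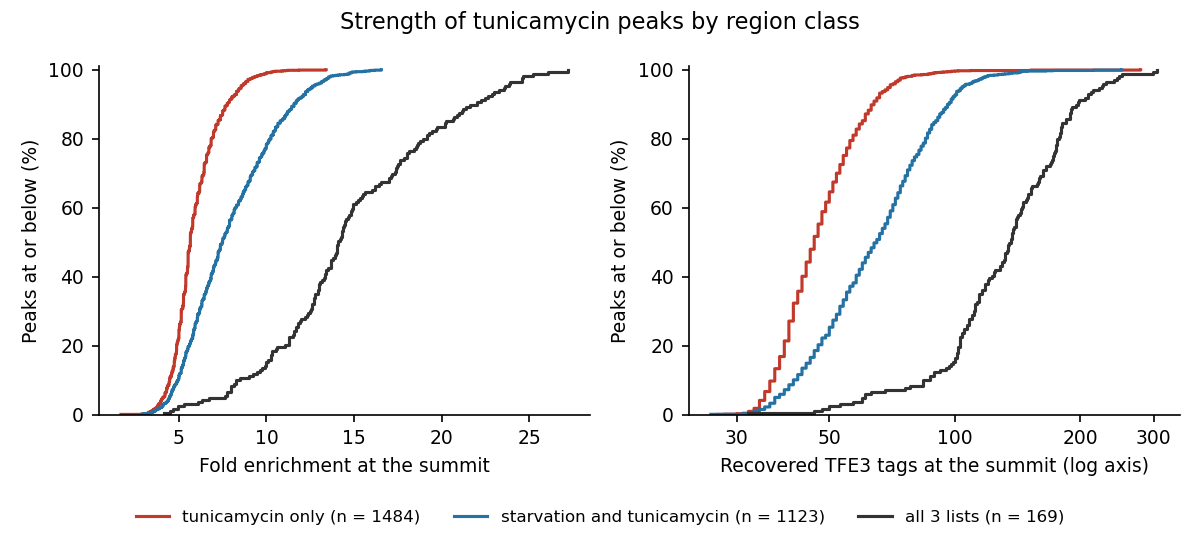
Cumulative share of tunicamycin peaks (percent) by fold enrichment at the summit (left, linear ratio) and by recovered TFE3 tags at the summit (right, log axis), for tunicamycin-only peaks, peaks shared with starvation alone and peaks of all 3 lists. The tunicamycin-only curve lies farthest to the left in both panels, with medians of 5.66-fold and 46 tags.

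Split into 4 equal groups by score, the regions ranged from a median fold of 4.74 with 37 tags and a width of 225 bp in the lowest group to 7.50 with 61 tags and 303 bp in the highest. Strength and width thus went together within the class, as descriptions of the same calls. Regions called in starvation only, the nearest counterpart in the other stress, had a median fold of 5.32 (4.27 to 6.81 between the 10th and 90th percentile, n = 388) and 31 tags in their own, shallower library. Control-only regions had a median fold of 5.88 with 28 tags. The median fold of regions found in 1 list only thus lay between 5.32 and 5.88 in all 3 lists. All were called against the same IgG library, with genome-wide backgrounds of 1.79 in control, 2.32 in starvation and 2.55 in tunicamycin.

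The highest score belonged to chr14:60584484-60584849, at rank 178 of the tunicamycin list. Its summit carried 100 tags (95% exact Poisson interval 81.4 to 122), a fold of 13.4, and a local background at the genome-wide level. The nearest control or starvation peak lay 764 kb away. The second, chr15:59170010-59170412, had 98 tags (79.6 to 119) and a fold of 10.8. It was less isolated, with a starvation peak of fold 16.0 at a gap of 35.1 kb. The third, chr13:107211967-107212330, had 88 tags (70.6 to 108), a fold of 11.8 and no control or starvation peak within 1881 kb. All tag intervals of these 3 regions overlap, so their order by tags is within counting error.

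Next came chr17:22227001-22227324 at 11.2-fold and chr8:98968925-98969313 at 11.1-fold, both with a score of 298. They were followed by chr5:72395118-72395454 at 10.9-fold, chr8:91859363-91859723 at 10.5-fold and chr19:17516792-17517156 at 8.09-fold. The last of these rested on 102 tags (83.2 to 124), the most among the 10, over a local background of 5 scaled tags, where the genome-wide level was 2.55. Place 9 was held by chr19:43068727-43069038 at 9.14-fold with 84 tags. Place 10 was a tie of 6 regions with a score of 233, of which chr14:64299050-64299389 and chr4:86654974-86655301 shared the highest fold, 10.4, with 77 tags each. With the chromosome 14 region as the last, the width over the 10 regions ran from 312 bp to 403 bp and the rank in the tunicamycin list from 178 to 428.

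The lowest scores, 19, were shared by chr15:34860270-34860483, chr13:108812179-108812390 and chr13:114144841-114145093, at 3.28-fold, 3.37-fold and 3.37-fold with 33, 34 and 34 tags. Each sat over a local background of 4. Above them stood chr15:57196810-57197066 with a score of 21, 27 tags and 3.83-fold at the genome-wide background, and chr2:17551066-17551278 with a score of 24, 40 tags and 3.27-fold over a background of 5. The −log10 p of these 5 regions ran from 5.31 to 5.85, close to 4.70, the lowest of the tunicamycin list.

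Because the tunicamycin library was the deepest and had the longest fragments, the calls were also recalculated at the scale of the other libraries. Its depth was 1.33 times that of the starvation library and 1.39 times that of the control library, and the shortest peaks were 212, 193 and 149 bp in tunicamycin, starvation and control. At the starvation library's depth and fragment length, the same tag density would give the median tunicamycin-only peak 31.6 tags in place of 46. The median −log10 p would have been 10.9 in place of 11.8. Tags are scaled to IgG before p is calculated, so depth changed the tag number and only fragment length changed the −log10 p. Whether depth limited the other lists was therefore not tested. At that scale 1470 of 1478 tunicamycin-only peaks (99.5%, 98.9 to 99.8) reached 5.27, the lowest −log10 p of any peak in the starvation list. As deposited, all values of the class were 5.31 or higher, already above 5.27, so this count was nearly fixed by the choice of regions. At the control library's depth and fragment length the median was 8.88, and 1393 of 1478 (94.2%, 92.9 to 95.4) reached that list's lowest value, 5.85. These are expected values without sampling noise, and the choice of regions by their tunicamycin call is not allowed for.

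**Figure D3:**
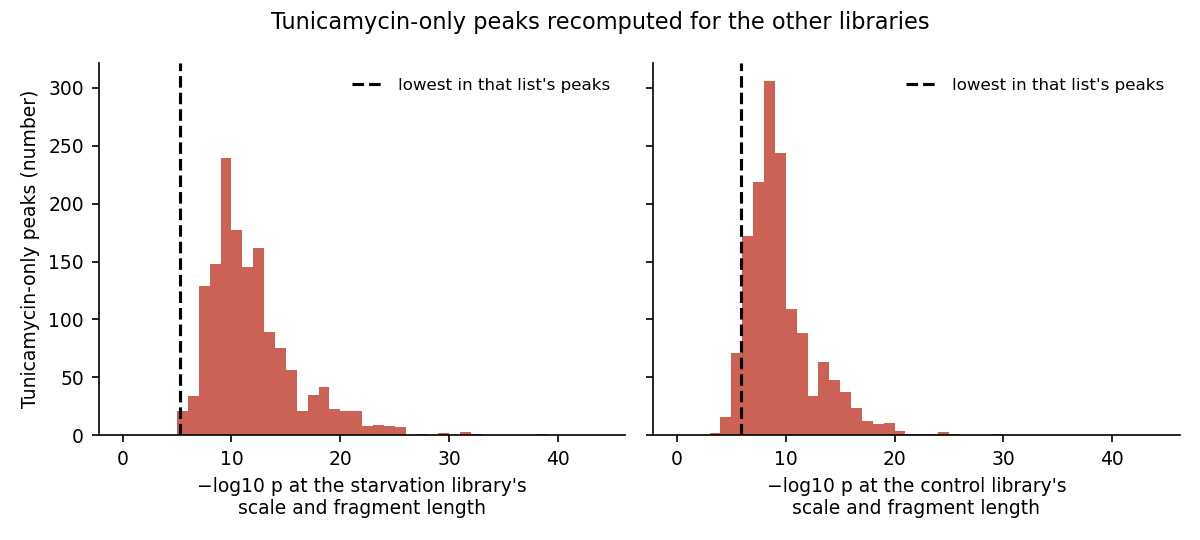
Number of tunicamycin-only peaks by the −log10 p that their tag density would give at the scale and fragment length of the starvation library (left) and the control library (right), in bins of 1. The dashed line is the lowest −log10 p among that library's own peaks, 5.27 and 5.85, and 1470 and 1393 of 1478 peaks lie at or above it. Only fragment length, and not depth, changes these values.

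The expected values lay in the lower part of the starvation list. Of the 1478 peaks, 900 (60.9%, 58.4 to 63.4) reached the lower quartile of that list's −log10 p, 10.2. The list's median, 14.0, was reached by 382 (25.8%, 23.6 to 28.2) and its upper quartile, 20.2, by 82 (5.55%, 4.44 to 6.84). A second limit came from the called peaks themselves. Among peaks at the genome-wide background, the lowest fold called was 5.01 in control, 4.21 in starvation and 3.69 in tunicamycin. Of the 770 tunicamycin-only peaks at that background, 98 (12.7%, 10.5 to 15.3) lay under the control value and 2 (0.260%, 0.0315 to 0.935) under the starvation value. These folds were compared as deposited and, unlike the −log10 p, were not rescaled for fragment length. Background level and fragment length differ between the lists, so the counts below each limit are approximate.

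The IgG signal at most of these regions was low. The peak caller takes as local background the highest of the genome-wide IgG level and the IgG signal around the summit, and 770 of 1478 tunicamycin-only peaks stood at the genome-wide level (52.1%, 49.5 to 54.7), with no local IgG excess. The share was 46.0% (43.0 to 49.0) for peaks shared with starvation alone and 30.8% (23.9 to 38.3) for peaks of all 3 lists. At that level the median fold was 5.93 with 43 tags, and above it 5.33 with 49 tags. A background of at least 5.10, which is 2 times the genome-wide value, was found at 36 regions (2.44%, 1.71 to 3.36) on 14 chromosomes. Their fold ran from 1.70 to 5.49, below the median of the class.

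The extreme of these, singled out after its values were seen, was chr11:3069497-3069730. It had 279 tags (247 to 314), the most of any tunicamycin-only peak, over a background of 76, and its fold of 1.70 was the lowest of the class. Next by low fold were chr5:14948226-14948507 at 2.88-fold, with 109 tags over 17, and chr1:85083590-85083923 at 2.97-fold, with 151 tags over 23. At these sites IgG was high as well, and its part in the calls was not tested.

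Tunicamycin-only regions lay on all 20 chromosomes that held peaks, the 19 autosomes and X. Chromosome 5 carried the most, 126 (8.49% of the class), followed by chromosome 3 with 113 and chromosome 2 with 108, and X carried 6. As a share of the tunicamycin peaks on the same chromosome they ran from 43.3% (35.4 to 51.4) on chromosome 17 to 60.8% (53.3 to 67.8) on chromosome 3. For 19 of the 20 chromosomes the interval held the overall 53.5%, and chromosome 17 fell below it. Among 20 intervals at the 95% level this was the only one, and no test was made. Median fold per chromosome lay between 5.33 on chromosome 15 and 6.43 on chromosome 7.

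**Figure D4:**
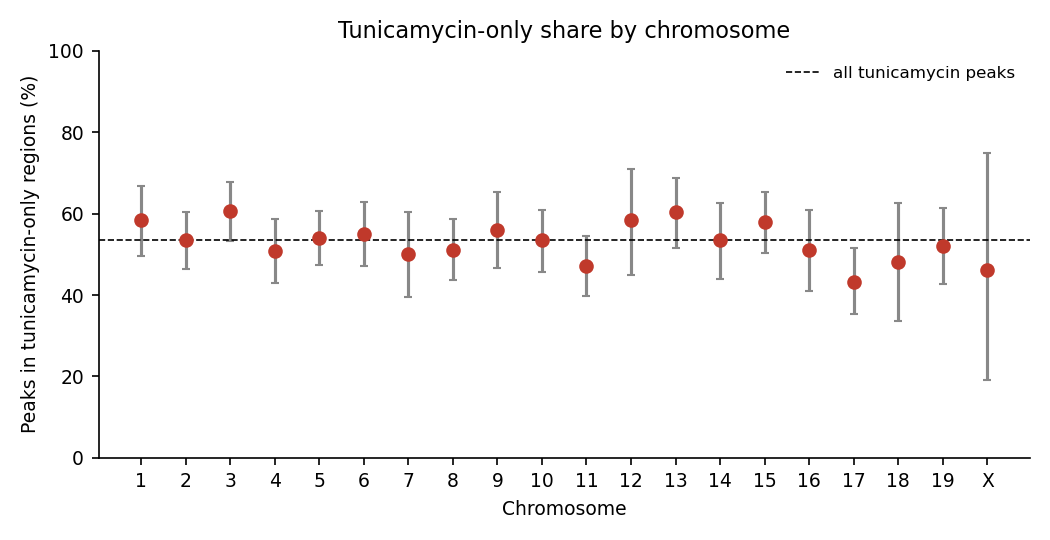
Share of the tunicamycin peaks of each chromosome that lay in tunicamycin-only regions (percent, points with 95% exact intervals). The dashed line is the share over all tunicamycin peaks, 53.5%, and it crosses the interval of every chromosome but 17.

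The regions mostly lay far from other TFE3 peaks. Shared tunicamycin peaks were widely spaced as well, with a median gap of 215 kb to another tunicamycin peak, and no expected spacing was calculated. The median gap to the nearest control or starvation peak was 449 kb (quartiles 162 and 981 kb). That neighbour was a starvation peak for 1284 regions (86.5%, 84.7 to 88.2) and a control peak for 200. The lists differ in length, and starvation supplied 1712 of the 2134 control and starvation peaks. The share of starvation neighbours to expect from that was not calculated. Only 34 regions (2.29%, 1.59 to 3.19) had such a peak within 10 kb, and 250 (16.8%, 15.0 to 18.8) within 100 kb. The share within 10 kb moved with the lists used. It was 1.24% with scores from 68 up and 0.917% from 108 up, 0% in lists of 422 peaks and 0.537% without the starvation list. Each of these settings left fewer control and starvation peaks to measure to and also changed the members, and the reason was not tested. Among tunicamycin peaks at the genome-wide background, with the control and starvation lists unchanged, it was 1.17%. In the 4 groups by score the share within 10 kb lay between 2.16% and 2.43%, with overlapping intervals. A shared tunicamycin peak lay within 10 kb of 23 regions (1.55%, 0.985 to 2.32).

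Among tunicamycin peaks themselves, the nearest other peak lay within 10 kb for 45 tunicamycin-only regions (3.03%, 2.22 to 4.04) and for 62 shared peaks (4.80%, 3.70 to 6.11), intervals that overlap. Within 100 kb the shares were 24.7% (22.6 to 27.0) and 30.3% (27.8 to 32.9), and these intervals do not overlap. Peaks that neighbour each other are both counted, so they are not independent, and the intervals are no test of a difference. Median gaps were 277 and 215 kb. For regions called in starvation only, a tunicamycin peak lay within 10 kb of 27 of 388 (6.96%, 4.64 to 9.96). Their targets, the 2776 tunicamycin peaks, outnumber the 2134 control and starvation peaks, so that value is not on the same footing as the 2.29%.

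**Figure D5:**
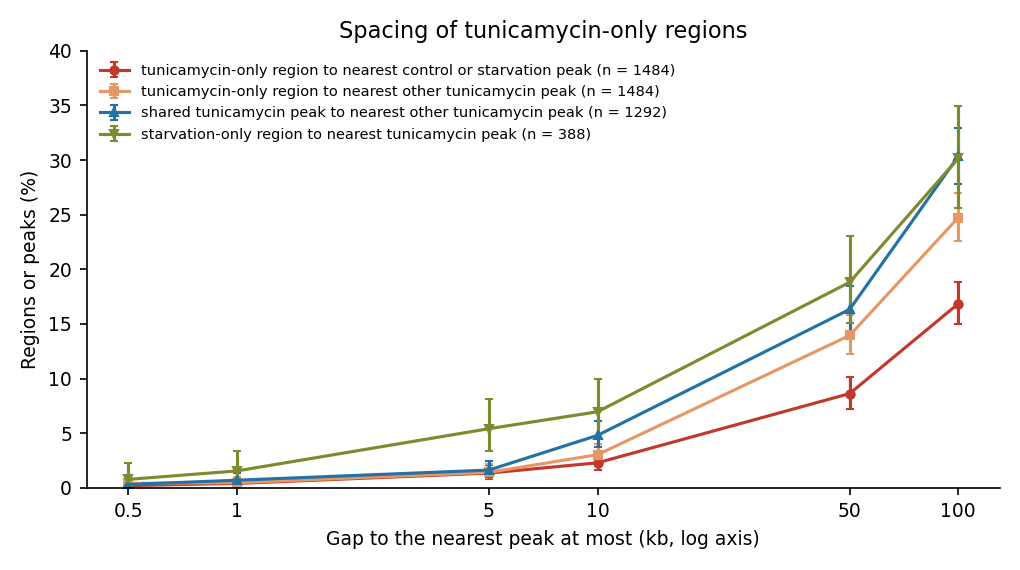
Share of regions or peaks (percent, with 95% exact intervals) whose nearest peak of the named kind lies within a given gap (kb, log axis). At 100 kb the tunicamycin-only regions reach 16.8% for control or starvation peaks and 24.7% for other tunicamycin peaks, against 30.3% for shared tunicamycin peaks.

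Close groups were rare. At gaps of at most 10 kb, 22 of the 1484 regions formed 11 pairs and no larger group. At 50 kb, 125 regions formed 59 groups, of which 6 held 3 or more. The only group of 4 at that spacing spanned 133 kb at chr19:58294591-58427438, with folds from 4.45 to 8.46. The closest pairs and the largest group are named after their values were seen. The closest pair, chr19:54225157-54225821 and chr19:54225964-54226250, was 142 bp apart, at 4.48-fold with 32 tags and 4.45-fold with 36 tags. The first of these was the widest region of the class, at 665 bp. The other wide ones were chr15:52691219-52691662 at 444 bp and chr2:178998826-178999236 at 411 bp. A second close pair, chr5:43653057-43653370 and chr5:43653681-43653953, had 6.78-fold with 56 tags and 6.60-fold with 57 tags, with summits 587 bp apart. Within each pair the tags differed by less than counting error.

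No region stood at the edge of the overlap rule. Just inside it were 3 regions with a starvation peak close by. chr15:95633965-95634220 had 86 tags and a fold of 7.84, with a starvation peak of fold 4.63 at a gap of 389 bp. chr2:113052423-113052648 had 41 tags and a fold of 5.66, and a starvation peak of fold 7.18 stood 416 bp away. chr2:122060784-122061102 had 37 tags and a fold of 4.86, with a starvation peak of fold 7.67 at 482 bp. Beside both chromosome 2 regions a separate tunicamycin peak lay over that starvation peak, at 9.60-fold and 6.08-fold, so the stress-shared site itself was found there and the tunicamycin-only peak was its weaker neighbour.

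Just outside the rule the shortest overlap was 103 bp, at chr4:15885493-15885772, a tunicamycin peak of fold 3.56 beside a starvation peak of fold 5.14 with summits 209 bp apart. The next 2, at chr11:96805066-96805317 and chr4:94723781-94724006, overlapped by 144 bp, with summits 31 and 37 bp apart. No shared tunicamycin peak thus overlapped its partner by 100 bp or less (0 of 1292, where 3 counts would be 0.232% and the exact interval reaches 0.285%), and 389 bp was the smallest gap between a tunicamycin-only peak and a peak of another list.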

How the data were processed

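Each TFE3 library had a deposited list of 10 columns in narrowPeak order, with peaks called per library against IgG, per the file's peak names. The submitters' processing notes name Bowtie, MACS2 and mm9 without versions or roles. The authors deposited a score, a linear fold ratio at the summit, −log10 values of the p-value and the q-value, and the summit offset. Tags were recovered by inverting MACS2's formulas: the fold with a pseudocount of 1, and p as a Poisson tail. The inversion gave whole tags, within 0.02, for 100% of control, 99.4% of starvation and 99.7% of tunicamycin peaks. The labels do not record these formulas. Recovered depth relative to IgG was 1.54, 1.62 and 2.14 in that order. Merging and recovery were tested on simulated data with well separated regions and with fold and p made by the same formulas. That test checks the calculation and cannot show that the peak caller used these formulas.

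With 1 library per group no test between conditions was made. Intervals are 95% exact and cover counting error only. The regions, lists and alternatives were chosen with earlier results of these data known. Regions named were the 10 of highest and 5 of lowest score, the 3 widest, and the 3 nearest the overlap rule on each side; as each region held 1 peak, none was named for peak number. A tie for place 10, the 3 lowest folds, the closest pairs and the largest group are named besides, chosen after their values were seen. Planned promoter, gene list and motif results needed an mm9 genome, not used here. The tools were scipy 1.17.1, pandas 2.3.3, numpy 2.4.6 and matplotlib 3.10.9 under Python 3.11.15.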

Additional observations from a re-analysis of the deposited data

How the results depend on the processing

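The count of 1484 tunicamycin-only regions depended on how the lists were cut. It was 1133 with scores from 68 up, the median of the control list, 1496 under a 50% reciprocal overlap, 1479 with peaks within 500 bp merged and, as no tunicamycin peak was shared with control alone, 1484 without the control list. It moved by over 1.5 times to 763 with scores from 108 up (the 75th percentile of the control list), to 139 when all lists kept their 422 highest scores, and to 2607 without the starvation list. Alternatives chosen after seeing the data gave 1480 with 1 lowest −log10 p, 651 with the tunicamycin list cut to the 1712 peaks of the starvation list, and 770 with tunicamycin peaks at the genome-wide background only. Where the tunicamycin list alone was shortened, the count could only fall. Cutting every list removes weak tunicamycin peaks and also the partners of strong ones, so the classes differ: of the 1133, 763 and 139 tunicamycin-only peaks, 949, 398 and 8 were among the 1484. As a share of the tunicamycin peaks kept, tunicamycin-only peaks were 53.5% as deposited, 54.1% and 57.4% at the 2 score cuts, 38.0% at the starvation list's length and 32.9% at the control list's length. The median fold moved under 6 of 10 alternatives, all upwards, to between 5.93 and 11.1, and the share within 10 kb of a control or starvation peak moved under 5 of 10, all downwards. The number reaching the starvation list's lowest −log10 p, 5.27, was 1470. It was 1464 at the highest of the 3 lists' lowest values and 1478 with the same fragment length in both libraries. The last count was fixed, since the deposited values of the class start at 5.31, and neither alternative varied depth. No paired analysis was possible because each group has 1 library. Other windows and distances for motifs and start sites were not run.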
